A study of Mus musculus with 3 samples.

Results

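C1q-positive barcodes, labelled as macrophages, were examined in mesenteric lymph nodes of mice, which drain the intestine, with a droplet assay that reads transcripts cell by cell. They were chosen by their measured C1q transcripts. A barcode was taken where 300 or more genes were detected, mitochondrial transcripts made up 10% or less, and it held at least 3 unique molecular identifiers (UMIs, each standing for 1 captured transcript) of C1qa, C1qb and C1qc together with at least 2 of these 3 genes seen. It also had to hold 0 UMIs of Cd3e (T cells), Ms4a1 (B cells) and Xcr1 (type 1 dendritic cells). This gave 296 of 67002 kept barcodes. The LysoPS-OVA library, from mice fed ovalbumin (OVA, the antigen) in lyso-phosphatidylserine nanoparticles, held 47 of 17323. The Free OVA library, from mice fed ovalbumin without nanoparticles, held 149 of 23331. The Citrate buffer library, from mice fed the 5 mM buffer alone, held 100 of 26348. The ovalbumin dose in the labels was 1 µg, feeding was oral and lasted 4 weeks, and each library pooled the nodes of 6 animals. The sources used here do not state strain, sex or age. With 1 library per group there is no spread between animals, no test of a difference was possible and no p-value is given. All 95% intervals cover counting error only.

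C1q is the recognition molecule of the classical complement pathway. Each of its units is built from the chains A, B and C, encoded by C1qa, C1qb and C1qc. The molecule is made mainly by macrophages and dendritic cells. In lymph nodes, macrophages of the sinuses (Siglec1, Marco) take up material from lymph, while macrophages of the T cell zone and the germinal centres clear dying cells through phosphatidylserine receptors such as Mertk and Timd4. C1q itself binds dying cells and immune complexes. The markers given with the label for these cells are C1qa, C1qb, C1qc, Lyz2, which encodes lysozyme M, and Apoe, the lipid carrier apolipoprotein E.

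C1qa, C1qb and C1qc lie side by side on the minus strand of mouse chromosome 4 (GRCm38, GENCODE annotation). C1qb spans 136880129 to 136886187, C1qc spans 136889804 to 136893065 and C1qa spans 136895917 to 136898803. The other genes on which the results turn are Lyz2 (chromosome 10, 117277331 to 117282321, minus strand), its neighbouring copy Lyz1 (chromosome 10, 117287797 to 117292868, minus strand) and the IgG receptor gene Fcgr4 (chromosome 1, 171018920 to 171029761, plus strand). The 250 bases before the RefSeq start of each gene (GRCm38.p6) are shown, because these genes chose or divided the barcodes. RefSeq starts differ from the GENCODE starts above, and the windows of C1qc, Lyz2 and Fcgr4 reach into the GENCODE span. The promoter table has no entry for C1qa. Capitals mark the half-site of the MAF factors, TGCTGA, and the core bound by the macrophage factor PU.1, GAGGAA, on either strand.
C1qb, chr4:136886201-136886450, minus strand: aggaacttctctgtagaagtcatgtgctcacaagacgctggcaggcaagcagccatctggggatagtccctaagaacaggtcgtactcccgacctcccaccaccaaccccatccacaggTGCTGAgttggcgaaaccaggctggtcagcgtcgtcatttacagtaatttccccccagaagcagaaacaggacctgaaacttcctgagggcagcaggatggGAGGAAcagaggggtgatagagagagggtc
C1qc, chr4:136892915-136893164, minus strand: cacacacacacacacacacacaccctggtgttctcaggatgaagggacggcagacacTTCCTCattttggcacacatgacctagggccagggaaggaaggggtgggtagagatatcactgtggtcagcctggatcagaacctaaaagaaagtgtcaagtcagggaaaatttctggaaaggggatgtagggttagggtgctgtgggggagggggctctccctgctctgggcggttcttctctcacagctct
Lyz2, chr10:117282273-117282522, minus strand: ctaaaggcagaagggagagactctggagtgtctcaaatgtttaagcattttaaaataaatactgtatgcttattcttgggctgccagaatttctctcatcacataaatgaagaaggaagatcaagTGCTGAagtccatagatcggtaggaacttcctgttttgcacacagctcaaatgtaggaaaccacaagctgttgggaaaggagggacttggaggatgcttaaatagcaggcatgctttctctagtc
Lyz1, chr10:117292869-117293118, minus strand: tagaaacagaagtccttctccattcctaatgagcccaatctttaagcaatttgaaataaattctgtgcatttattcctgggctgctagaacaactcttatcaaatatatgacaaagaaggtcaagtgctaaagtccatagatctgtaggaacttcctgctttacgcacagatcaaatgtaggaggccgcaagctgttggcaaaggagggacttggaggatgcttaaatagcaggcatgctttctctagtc
Fcgr4, chr1:171018676-171018925, plus strand: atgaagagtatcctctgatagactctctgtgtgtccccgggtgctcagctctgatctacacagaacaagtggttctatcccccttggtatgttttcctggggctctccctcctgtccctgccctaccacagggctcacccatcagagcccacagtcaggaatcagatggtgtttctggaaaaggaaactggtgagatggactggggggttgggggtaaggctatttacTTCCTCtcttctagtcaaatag
The MAF half-site was in the C1qb and Lyz2 windows, and the PU.1 core in those of C1qb, C1qc and Fcgr4. Both are common: of 32851 promoter windows of this length 16.1% hold the half-site and 23.3% the core, and the 2 motifs did not overlap here. The Lyz1 and Lyz2 windows were identical in all of their last 50 bases and in 92 of the last 100, and they bear on the starts, not on the transcript ends that were counted. Lyz1 and Lyz2 are closely related copies, so counts of Lyz1 are given as uncertain.

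The libraries differed in depth and quality. They held 84089686 UMIs (LysoPS-OVA), 81559237 (Free OVA) and 96616683 (Citrate buffer), and the median kept barcode had 4248, 1871 and 2830 UMIs in that order of libraries. C1q-positive barcodes were shallower, with medians of 969 UMIs in LysoPS-OVA (509 to 3036), 1177 in Free OVA (541 to 5175) and 1356 in Citrate buffer (535 to 7475), and summed totals of 56241, 215431 and 150987 UMIs. Malat1, a nuclear RNA, made up under 0.5% of UMIs in 40 of 47 C1q-positive barcodes of LysoPS-OVA, 122 of 149 of Free OVA and 63 of 100 of Citrate buffer. That is 85.1%, 81.9% and 63%, against 20.5%, 50.3% and 25.3% of all kept barcodes. Scrublet called 0 of 47, 1 of 149 and 12 of 100 C1q-positive barcodes doublets, which were kept in. It called 7.49%, 5.92% and 17.0% of all kept barcodes. The libraries share 166 to 194 barcode sequences by pair, but no C1q-positive barcode was shared. Xist was seen in 0, 2 and 8 of them and Y-linked transcripts in 7, 24 and 22, and the part of sex in the results was not tested.

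C1q-positive barcodes were rare in every library and their share depended on what it was divided by. They made up 0.271% of kept barcodes in LysoPS-OVA (95% exact binomial interval 0.199 to 0.361), 0.639% in Free OVA (0.541 to 0.749) and 0.380% in Citrate buffer (0.309 to 0.461). The share in LysoPS-OVA was thus 0.715 times that in Citrate buffer (0.506 to 1.01) and 0.425 times that in Free OVA (0.306 to 0.589), and that in Free OVA was 1.68 times that in Citrate buffer (1.31 to 2.17). Among barcodes without UMIs of Cd3e, Ms4a1 and Xcr1, however, the shares were 1.21%, 1.24% and 1.18%, and the ratios 1.02, 0.970 and 1.05, so the order of the libraries was not kept with this denominator. Of barcodes with 500 to 1000 UMIs, 80.9% in LysoPS-OVA, 83.1% in Free OVA and 72.4% in Citrate buffer were free of these 3 lineage genes, against 3.64%, 6.29% and 5.84% of barcodes with 4000 UMIs or more. The rule therefore leaves out most deep barcodes. Among barcodes free of the lineage genes, the C1q-positive share differed by depth. At 500 to 1000 UMIs it was 1.92% in LysoPS-OVA, 1.09% in Free OVA and 2.75% in Citrate buffer. It was 1.31%, 1.295% and 1.161% in the next deeper bin, and 0.468%, 1.65% and 0.634% in the bin just under 4000 UMIs. The last held 4, 32 and 15 C1q-positive barcodes. The shares of 1.21%, 1.24% and 1.18% are thus close only over all depths together. With the C1q threshold alone, 63, 205 and 201 barcodes passed, of which the lineage genes removed 16 (25.4%), 56 (27.3%) and 101 (50.2%). The removed barcodes had median depths of 4705, 3868 and 3213 UMIs and 2017, 2153 and 2011 CPM of C1q transcripts (CPM, UMIs of a gene scaled by the total of the barcodes summed), below the 7681, 6387 and 5285 CPM of those kept.

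**Figure D1:**
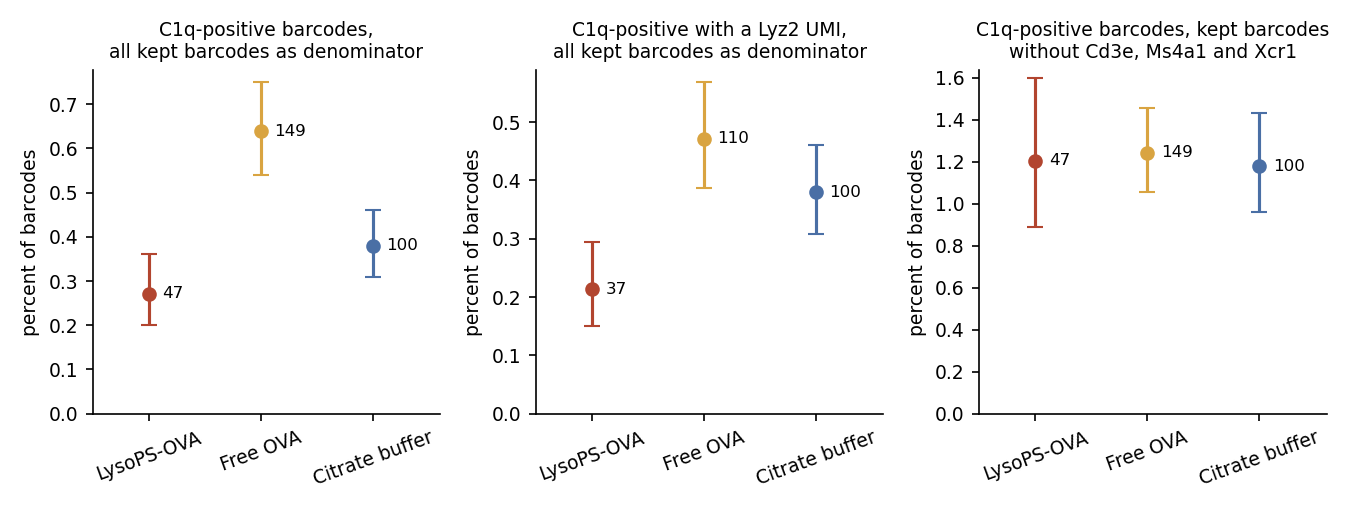
Share of C1q-positive barcodes in percent (y axis) by library (x axis), in 3 panels: of all kept barcodes, the same for barcodes in which Lyz2 was seen, and of barcodes free of Cd3e, Ms4a1 and Xcr1. Points are shares, bars are exact 95% binomial intervals and numbers are barcode counts; the shares of 0.271%, 0.639% and 0.380% in the first panel become 1.21%, 1.24% and 1.18% in the last.

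Within the chosen barcodes C1q transcripts were at similar numbers in all libraries, which describes the choice and is no finding. The median was 7 C1q UMIs per barcode in each library, with ranges of 3 to 33 in LysoPS-OVA, 3 to 47 in Free OVA and 3 to 27 in Citrate buffer. All 3 genes were seen in 28, 87 and 61 barcodes. Just inside the threshold, with 3 UMIs, were 2, 26 and 21 barcodes; just outside, with 2 UMIs, were 9, 51 and 33. C1qa had 199, 539 and 364 UMIs, C1qb had 158, 564 and 270, and C1qc had 75, 273 and 164. In B cell barcodes C1qa had a UMI in 0.279% (LysoPS-OVA), 0.702% (Free OVA) and 1.20% (Citrate buffer), at median depths of 4559, 5482 and 3847 UMIs. These were 46, 68 and 106 UMIs in 16, 36 and 68 barcodes. B cell barcodes can include barcodes past the C1q threshold that were removed for Ms4a1 (9, 37 and 63). The values are therefore not a background of free RNA alone.

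The label was checked against macrophage markers that the rule did not use, and these were unevenly present. Lyz2 had a UMI in 37 of 47 C1q-positive barcodes of LysoPS-OVA (78.7%), 110 of 149 of Free OVA (73.8%) and 100 of 100 of Citrate buffer. In B cell barcodes, whose median depth is higher, Lyz2 was seen in 2.06%, 3.53% and 6.37%. Apoe was seen in 80.9%, 73.8% and 95%, at 12873, 8926 and 11021 CPM, but also in 30.6% to 37.1% of B cell barcodes, at only 192.8 to 241.1 CPM. Csf1r, the receptor for the macrophage growth factor CSF-1, was seen in 29.8%, 18.1% and 31%, against at most 0.920% of B cell barcodes. Ms4a7, a membrane protein of macrophages, was seen in 38.3%, 38.3% and 38%, and the lysosomal protein Cd68 in 31.9%, 18.8% and 17.0%. Over the 18 macrophage markers not in the rule, the summed level was 31738, 21877 and 26638 CPM. Cd163 and Vsig4 were at 0 in every library.

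Genes of lymph node macrophage subsets were seen unevenly, and those of sinus macrophages were nearly absent. The 7 sinus genes together had 2 UMIs in LysoPS-OVA, 12 in Free OVA and 6 in Citrate buffer: Siglec1, the sialoadhesin of sinus macrophages, had 0, 0 and 1, Marco had 0, 5 and 4, and the F4/80 gene Adgre1 had 2, 6 and 1. The 7 genes of T cell zone and germinal centre macrophages had 48, 115 and 117 UMIs (853.5, 533.8 and 774.9 CPM), and at least 1 of them was seen in 66.0%, 45.6% and 52.0% of barcodes. Of these, the adhesion molecule Vcam1 was seen in 12.8%, 13.4% and 18%, the fractalkine receptor Cx3cr1 in 17.0%, 16.1% and 17.0%, and the phosphatidylserine receptor Timd4 in 14.9%, 5.37% and 13%. Pla2g2d, a secreted phospholipase of lymphoid tissue, was seen in 31.9%, 41.6% and 50%. The 8 monocyte markers summed to 533.4, 297.1 and 404.0 CPM, with Chil3 and Fn1 at 0 in every library.

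Transcripts of other cell types were present and differed between libraries. B cell markers apart from Ms4a1 had a UMI in 68.1% of barcodes in LysoPS-OVA, 62.4% in Free OVA and 75.0% in Citrate buffer, at 1013, 840.2 and 1225 CPM. T cell markers apart from Cd3e were seen in 31.9%, 38.3% and 69.0%, at 337.8, 473.5 and 1007 CPM, so they were highest in Citrate buffer. They were highest there in B cell barcodes (46.1%, 36.7% and 68.0%) and migratory dendritic cell barcodes (39.9%, 30.8% and 60.8%) too. B cell markers were seen in 65.0%, 61.2% and 71.1% of migratory dendritic cell barcodes. These differences are thus not particular to C1q-positive barcodes. Markers of migratory dendritic cells (Fscn1, Ccl22, Ccr7) were seen in 17.0%, 31.5% and 39.0%, at 213.4, 668.4 and 430.5 CPM, and 0, 3 and 2 barcodes also met the rule for such cells. Cycling genes were seen in 17.0%, 13.4% and 30%. In migratory dendritic cell barcodes they were seen in 7.81%, 9.29% and 28.6%, and in B cell barcodes in 13.2%, 16.75% and 35.6%. Neutrophil markers had 0, 7 and 2 UMIs, NK cell markers 1, 0 and 0, and fibroblast markers 1, 2 and 0. The labels call the cells intestinal, and the 8 epithelial markers had 0, 0 and 4 UMIs here.

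**Figure D2:**
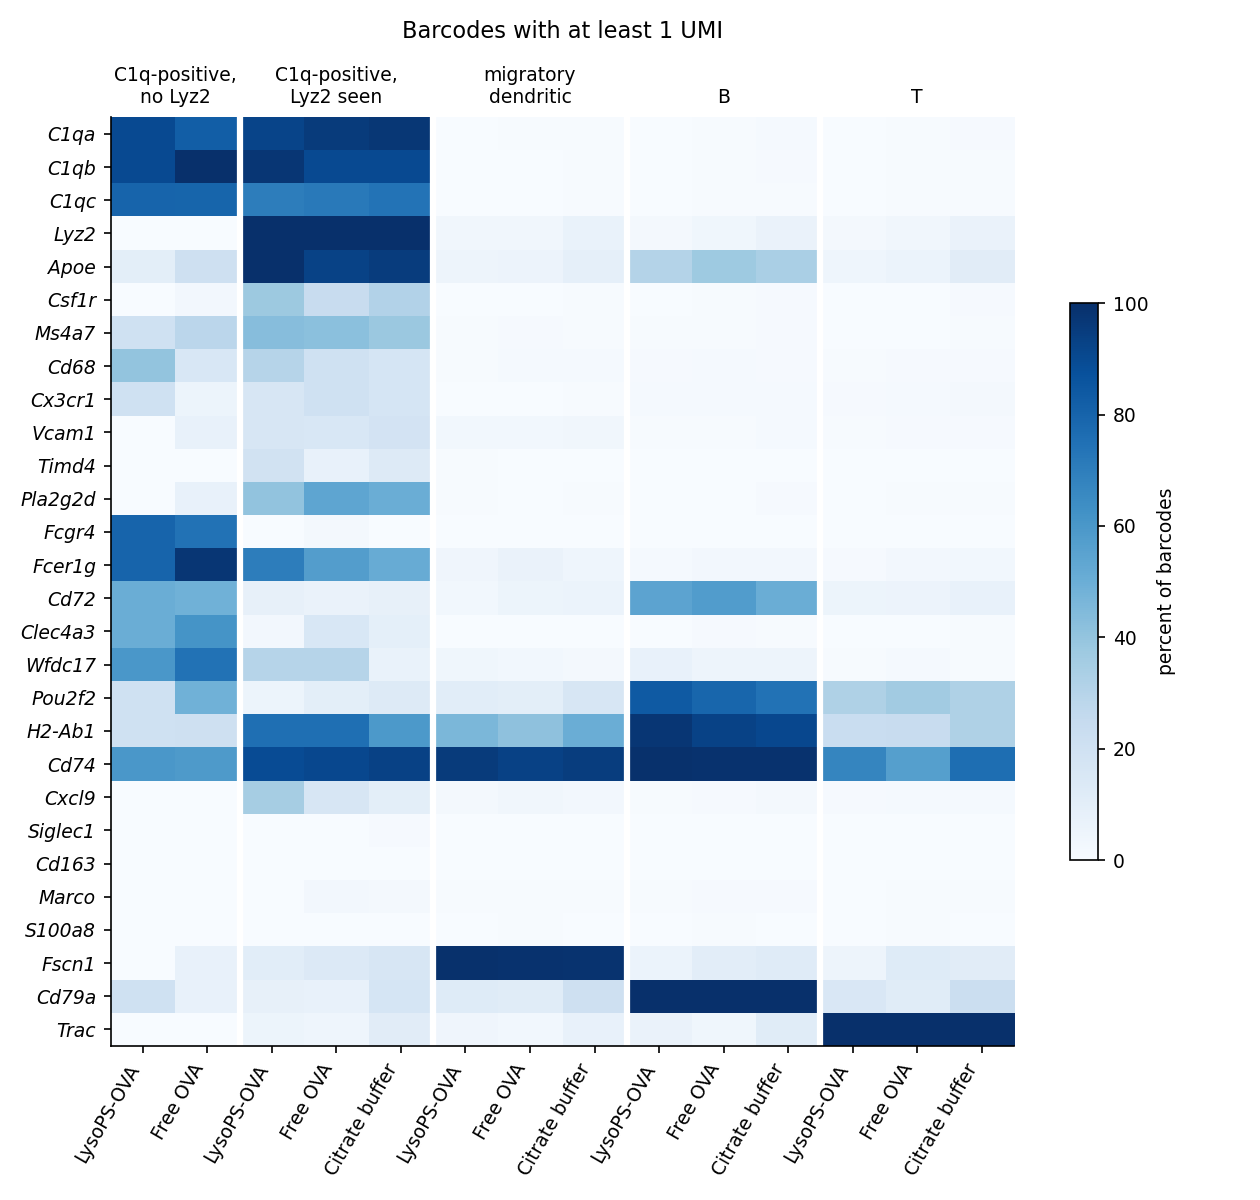
Percent of barcodes with at least 1 UMI (colour) for macrophage, subset and other cell type markers (rows). Columns are the C1q-positive barcodes without a Lyz2 UMI (LysoPS-OVA, Free OVA), those with one (LysoPS-OVA, Free OVA, Citrate buffer), and migratory dendritic cell, B cell and T cell barcodes; Fcgr4 stands out in the first columns and Apoe, Csf1r and Pla2g2d in the next.

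Genes tied to the nanoparticle lipid were near the limit of detection. Among receptors for lysophosphatidylserine, Gpr34 had 0 UMIs in LysoPS-OVA, 1 in Free OVA and 2 in Citrate buffer, Gpr174 had 6, 7 and 12, and P2ry10 had 4, 6 and 3. Abhd12, the enzyme that breaks this lipid down, had 3, 11 and 18. Among phosphatidylserine receptors, Mertk had 2, 6 and 10 UMIs, Axl had 1, 25 and 3 and Tyro3 had none, and Mfge8, which bridges dying cells to phagocytes, had 1, 2 and 8. No order between the libraries is read from numbers of this size. Axl was seen in 17 of 149 barcodes of Free OVA, against 1 of 47 in LysoPS-OVA and 3 of 100 in Citrate buffer. Of other complement genes the properdin gene Cfp had 13, 51 and 29 UMIs, factor B (Cfb) had 12, 25 and 30 and C3 had 4, 20 and 16. Of genes of tolerance, Il10 had 1, 0 and 0 UMIs and Tgfb1 had 11, 27 and 21, seen in 19.1%, 17.4% and 18% of barcodes.

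The C1q-positive barcodes fell into a larger set with Lyz2 and a smaller set without it, a division made after the values were seen. Lyz2 had 0 UMIs in 10 of 47 barcodes of LysoPS-OVA (21.3%, 10.7 to 35.7) and 39 of 149 of Free OVA (26.2%, 19.3 to 34.0). It had 0 UMIs in none of 100 of Citrate buffer, with an exact upper limit of 3.62%; 3 counts of 100 would be 3%. With the C1q threshold alone, whatever the lineage genes, Lyz2 was at 0 in 13 of 63, 53 of 205 and 4 of 201 barcodes, so such barcodes were seen in Citrate buffer among those with lineage genes. Where it was seen, its median was 20, 17 and 17 UMIs and its maximum 144, 95 and 84; only 1, 19 and 12 barcodes lay between 1 and 4 UMIs. Depth was close on both sides: barcodes without Lyz2 had a median of 895.5 UMIs in LysoPS-OVA and 1111 in Free OVA, those with it 1004 and 1254. If each barcode were read at 500 UMIs, 22.4%, 31.6% and 4.86% would be without Lyz2. Fcgr4, which encodes an activating receptor for IgG and was not in the rule, was seen in 8 of 10 barcodes without Lyz2 in LysoPS-OVA and 29 of 39 in Free OVA. Of barcodes with Lyz2 it was seen in 0 of 37, 2 of 110 and 0 of 100. Apoe showed the reverse, in 1 of 10 and 8 of 39 without Lyz2, against 37 of 37, 102 of 110 and 95 of 100 with it. The barcodes without Lyz2 thus carry C1q but lack the label's 2 other markers in most cases, and are called here Fcgr4-led barcodes without Lyz2.

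**Figure D3:**
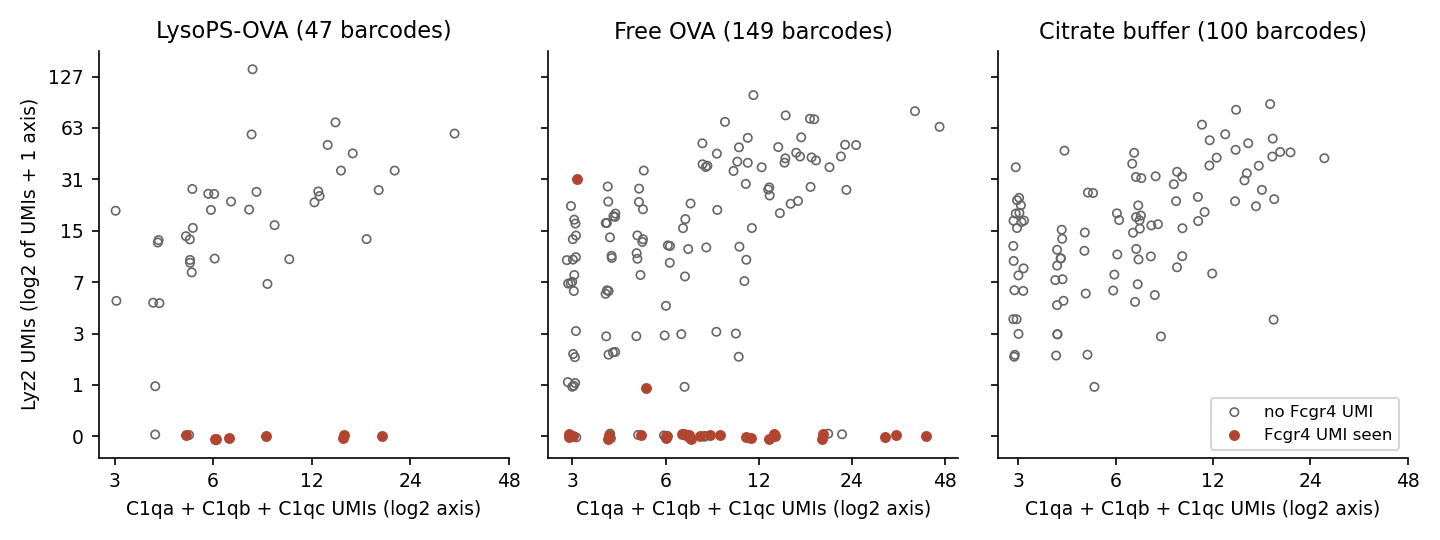
Each point is a C1q-positive barcode, with its C1q UMIs (x axis, log2 scale) and Lyz2 UMIs (y axis, log2 of UMIs + 1), in 1 panel per library. Filled red points have an Fcgr4 UMI and open points none. Red points lie along 0 Lyz2 UMIs in LysoPS-OVA and, but for 2, in Free OVA, and are absent from Citrate buffer.

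Fcgr4 had the highest ratio of the genes listed as higher without Lyz2. Its signalling partner Fcer1g, the gamma chain that activating Fc receptors need to reach the surface, was higher too. The ratio of Fcer1g was below those of genes such as Car3, Cd72 and Ccnd2. Levels were compared as UMIs summed over barcodes and divided by their total (CPM), over LysoPS-OVA and Free OVA together. Of 1119 genes with at least 30 UMIs over both sets together, 16.4% differed by 2-fold or more on the log2(CPM + 10) scale, 6.43% higher and 9.92% lower without Lyz2. Some genes named below had fewer UMIs than this. Since the division and these levels come from the same barcodes, the values are a description. Fcgr4 had 3003 CPM without Lyz2 and 0 with it in LysoPS-OVA, and 1994 and 11.8 CPM in Free OVA. Fcer1g had 6420 CPM without Lyz2 and 1460 with it in LysoPS-OVA, and 5983 and 779.7 in Free OVA, a pooled fold of 6.54 (5.48 to 7.83). Cd72, an inhibitory lectin-like receptor, had 932.0 and 64.4 CPM in LysoPS-OVA and 910.5 and 41.4 CPM in Free OVA (19.7-fold, 9.91 to 43.6). Cd72 and Pou2f2 are also B cell genes: in B cell barcodes Cd72 had 205.9 CPM in LysoPS-OVA and 221.3 CPM in Free OVA, below its level without Lyz2, and Pou2f2 had 562.9 and 527.3 CPM. The B cell marker list summed to 1553 CPM without Lyz2 and 901.6 CPM with it in LysoPS-OVA, and to 693.7 and 880.1 CPM in Free OVA, and its part in these levels was not tested. Of the list of genes shared by dendritic cells, Flt3 and Zbtb46 were at 0 on both sides, and the list, which holds Batf3 and Itgax, summed to 621.3 CPM without Lyz2 (50% of barcodes) and 64.4 CPM with it (8.11%) in LysoPS-OVA, and to 650.4 CPM (41.0%) and 177.2 CPM (20%) in Free OVA. Its part was not tested either. The lectin gene Clec4a3 was 9.13-fold higher, cyclin D2 (Ccnd2) 12.1-fold, the inflammasome adaptor Pycard 6.32-fold, the transcription factors Pou2f2 and Batf3 5.81-fold and 5.08-fold, and Wfdc17, a small secreted protein, 4.14-fold. Car3, a carbonic anhydrase, had 31 UMIs without Lyz2 and 0 with it, at least 40.0-fold higher with a floor of 3 UMIs for the set. Fabp4, a fatty acid binding protein, had 22 and 0 UMIs, at least 28.4-fold higher, but 11 of the 12 barcodes in which it was seen were from Free OVA. C1qb, C1qc and C1qa, by which the barcodes were chosen, were at 1.88-fold, 1.39-fold and 1.13-fold, given as a description only.

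Apoe and genes of MHC class II presentation were lower without Lyz2. Apoe had 103.6 CPM without Lyz2 and 15520 with it in LysoPS-OVA, and 802.1 and 11140 CPM in Free OVA (0.0564-fold). Of the 12 genes of MHC class II presentation, 8 passed the filter, all 8 were lower and 6 were past 2-fold, with a median of −2.67 log2 where the median of all genes was −0.04. H2-Ab1, a class II beta chain, had 207.1 and 3521 CPM in LysoPS-OVA and 260.1 and 2735 CPM in Free OVA, H2-Aa was 0.108-fold, H2-Eb1 0.164-fold and the invariant chain Cd74 0.131-fold. The sets differed in total UMIs, with 9657 without Lyz2 and 46584 with it in LysoPS-OVA, and 46129 and 169302 in Free OVA. Lyz1 had 0 UMIs without Lyz2 against 119 with it, the interferon-induced chemokine Cxcl9 0 against 79 and Ccl12 0 against 55. Cfb had 0 against 37, C3 0 against 24, the phosphatidylserine-bridged receptor Axl 0 against 26 and Timd4 0 against 17. With a floor of 3 UMIs without Lyz2, these were at most 0.0976-fold (Lyz1), 0.147-fold (Cxcl9), 0.211-fold (Ccl12), 0.314-fold (Cfb), 0.484-fold (C3) and 0.4465-fold (Axl). Timd4 had the fewest UMIs of these and lay nearest the floor. Csf1r had 1 UMI against 53, and Pla2g2d 3 against 158. Of 18 genes of lipid and cholesterol handling 4 were measured, all 4 lower and 2 past 2-fold (median −1.43), and of 19 chemokine genes 5 were measured, 4 lower with 3 past 2-fold and 1 higher (median −1.61). Fabp4 (22 UMIs without Lyz2 against 0 with it) and the chemokine gene Cxcl13 (22 against 3) were higher without Lyz2. Both had too few UMIs to be measured, so these counts and medians leave them out. Of 8 measured genes of MHC class I 5 were lower, 1 past 2-fold, and 3 higher (median −0.12). Of 17 lysosomal genes 13 were lower and 4 higher, with 5 past 2-fold lower and a median of −0.50. Not all macrophage genes went with these: Cd68 was at 1.23-fold, Ms4a7 at 1.05-fold and the factor Spi1, which encodes PU.1, at 1.18-fold.

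**Figure D4:**
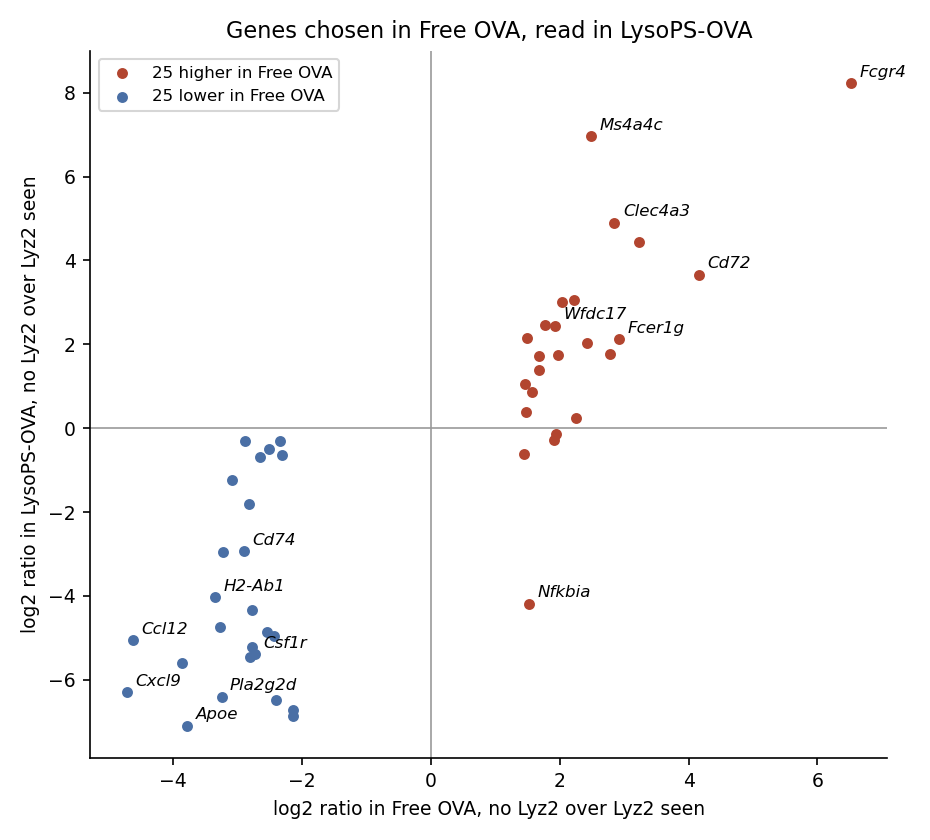
Log2 ratio of barcodes without Lyz2 over those with it, in Free OVA (x axis) and LysoPS-OVA (y axis), for the 25 genes highest (red) and 25 lowest (blue) in Free OVA. The blue genes lie below 0 in LysoPS-OVA as well, and most red genes above it. Genes with 0 UMIs without Lyz2 take their position from the pseudocount of 10 CPM.

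The pattern seen in Free OVA was read again in LysoPS-OVA, a separate library. Of the 25 genes with the highest ratio in Free OVA, 24 had more than 3 UMIs in LysoPS-OVA and 20 of these were higher there too (83.3%), with a median of 1.90 log2. Of the 25 lowest, 25 were lower, with a median of −4.85, and 14 had no UMI without Lyz2. The barcodes without Lyz2 held only 9657 UMIs in LysoPS-OVA, so the pseudocount of 10 CPM sets the value of a gene at 0. The median gene, H2-DMa, had 0 UMIs against 13, so −4.85 is not a measured size of difference. Of all 719 genes so measured, 47.6% were higher in LysoPS-OVA and the median was −0.05. The makeup of C1q itself, by which the barcodes were chosen, is a description and supports nothing here. C1qb made up 46.7% of C1q UMIs without Lyz2 in LysoPS-OVA (36.3 to 57.4) and 47.9% in Free OVA (42.9 to 52.9). With Lyz2 it made up 33.8% (28.8 to 39.1), 38.1% (35.1 to 41.3) and, in Citrate buffer, 33.8% (30.6 to 37.2). C1qa made up 30.4% and 34.5% without Lyz2, against 50.3%, 41.1% and 45.6% with it. Mitochondrial, ribosomal and Malat1 shares were close on both sides, at 3.34% without Lyz2 and 2.62% with it in LysoPS-OVA and 2.25% and 1.96% in Free OVA for mitochondrial UMIs.

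Between LysoPS-OVA and Citrate buffer, the C1q-positive barcodes of LysoPS-OVA were past 2-fold higher in 7 genes, led by Wfdc17, Cxcl9, Fcer1g and Cst3. The 3 comparisons between libraries share libraries with each other. Of 534 measured genes 18.7% were past 2-fold, 1.31% higher and 17.4% lower, around an all-gene median of −0.17 log2. The secreted protein gene Wfdc17 had 764.6 CPM in LysoPS-OVA and 92.7 CPM in Citrate buffer (8.25-fold, 4.42 to 16.3), where in all other kept barcodes the ratio was 1.30. Citrate buffer had no barcodes without Lyz2, and among barcodes with Lyz2, Wfdc17 had 429.3 and 92.7 CPM. Cxcl9, which draws T cells that bear its receptor Cxcr3, had 36 UMIs in 13 of 47 barcodes of LysoPS-OVA and 23 UMIs in 10 of 100 of Citrate buffer, at 640.1 and 152.3 CPM (4.20-fold, 2.42 to 7.43). Among barcodes with Lyz2 it was 5.07-fold higher, and in all other barcodes it was at 0.669-fold. Fcer1g had 2311 and 655.7 CPM, and 1460 and 655.7 CPM among barcodes with Lyz2 (2.23-fold, 1.61 to 3.06). Cst3, the protease inhibitor cystatin C, had 1689 and 721.9 CPM (2.34-fold, 1.76 to 3.11). The autophagy gene Gabarap, the respiratory chain gene Cox6b1 and the G protein gene Gngt2 were 2.11-fold, 2.09-fold and 2.06-fold higher. Among barcodes with Malat1 under 0.5%, Wfdc17 was at 12.2-fold and Fcer1g at 3.35-fold, but Cst3 at 1.95-fold, Gabarap at 1.85-fold, Cox6b1 at 1.78-fold and Gngt2 at 1.64-fold were no longer past 2-fold, and Cxcl9, at 4.26-fold, had too few UMIs to be measured.

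Of the 12 genes of MHC class II presentation, 6 were measured in this comparison and all 6 were higher with 0 past 2-fold, with a median of 0.72 log2 in all C1q-positive barcodes and 0.93 in those with Lyz2, where 3 were past 2-fold. Of all 515 genes measured with Lyz2, 22.7% were past 2-fold, 2.33% higher and 20.4% lower. With Lyz2, H2-Ab1 had 3521 CPM in LysoPS-OVA and 1563 CPM in Citrate buffer (2.25-fold, 1.83 to 2.76), H2-Aa had 4894 and 2318 CPM (2.11-fold, 1.78 to 2.50) and Cd74 had 12794 and 6285 CPM (2.04-fold, 1.83 to 2.26). In all other kept barcodes the same genes were at 1.37-fold, 1.26-fold and 1.37-fold, so class II genes were higher in LysoPS-OVA there too, by less. Of barcodes with Malat1 under 0.5%, the class II median was 0.54. The iron storage genes Ftl1 and Fth1 were 1.51-fold (1.36 to 1.68) and 1.48-fold (1.34 to 1.63) higher, and the lysosomal membrane protein gene Cd63 1.62-fold (1.12 to 2.34). Of 11 measured lysosomal genes 7 were higher and 4 lower, with none past 2-fold.

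The lowest genes of LysoPS-OVA in this comparison rested on a single barcode of Citrate buffer. Of the genes past 2-fold 7 were higher and 93 lower, but the minimum of 30 UMIs is harder to reach in LysoPS-OVA, which has the smaller total, so this split is not read as a direction. It was 1126 higher and 2896 lower with no filter, and 7 higher and 9 lower with more lineage genes at 0. Lrmda had 1 UMI in LysoPS-OVA against 112 in Citrate buffer, of which 109 were in 1 barcode with 7475 UMIs, the deepest of all. The same barcode held 55 of 58 UMIs of the calcium exchanger Slc8a1, 39 of 53 of the factor Trps1, 35 of 59 of the factor Zeb2 and 22 of 43 of Vcam1. It had 1 UMI each of C1qa, C1qb and C1qc, 3 of Lyz2 and 0 of Apoe, and Malat1 made up 3.76% of its UMIs. Without it the levels in Citrate buffer were 20.9 CPM for Lrmda, 20.9 for Slc8a1, 97.5 for Trps1, 167.2 for Zeb2 and 146.3 for Vcam1. Among genes not tied to it, the kinase Csk had 2 UMIs in LysoPS-OVA against 33 in Citrate buffer, in 30 barcodes, and the cohesin gene Stag1 had 3 against 43, in 30 barcodes. Of barcodes with Malat1 under 0.5%, 302 genes were measured and 2.98% were past 2-fold, 0.662% higher and 2.32% lower. At 0.5% or more, 46 of 131 measured genes were past 2-fold. In other subsets it was 20 of 281 with C1q at 6 UMIs or more and 16 of 223 with more lineage genes at 0. Without doublets it was 44 of 416. The part of RNA quality in the lower genes was not tested.

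Free OVA was higher than Citrate buffer in Fcgr4 and the genes seen with it, and in Wfdc17, Cst3 and H2-T23. Of 896 measured genes 14.1% were past 2-fold, 3.57% higher and 10.5% lower, around a median of 0.03 log2. Fcgr4 had 94 UMIs in 31 of 149 barcodes of Free OVA and 0 UMIs in 100 barcodes of Citrate buffer, at least 22.0-fold higher with a floor of 3 UMIs, and it was 7.34-fold higher in all other kept barcodes. Wfdc17 had 895.9 and 92.7 CPM (9.66-fold, 5.62 to 18), Clec4a3 had 343.5 and 59.6 CPM, Cd72 had 227.5 and 53.0 CPM and the antiviral gene Ifitm2 had 218.2 and 39.7 CPM. Fcer1g was 2.89-fold higher in all C1q-positive barcodes (2.31 to 3.63) but 1.19-fold among those with Lyz2 (0.909 to 1.56). Other genes were past 2-fold among barcodes with Lyz2 as well. Wfdc17 was then 5.99-fold higher (3.4 to 11.4), Apol7c of the apolipoprotein L family 4.59-fold (2.01 to 12.2, and 2.07-fold in all other barcodes), H2-T23, a nonclassical class I molecule, 3.77-fold (1.79 to 8.86, and 2.39-fold elsewhere) and Cst3 2.90-fold (2.33 to 3.62, and 1.64-fold elsewhere). Of all 790 genes measured with Lyz2, 14.4% were past 2-fold, 2.53% higher and 11.9% lower. Of 7 measured genes of MHC class II 7 were higher with Lyz2, with a median of 0.58 and none past 2-fold. All 4 measured chemokine genes were higher too (median 0.67), with Ccl12 at 2.23-fold (1.22 to 4.26). Over all C1q-positive barcodes, lower in Free OVA were Lyz1 with 292.4 CPM against 1119 (0.261-fold), Csf1r with 162.5 against 278.2 (0.584-fold, 0.362 to 0.937, and 0.464-fold elsewhere) and the lymphocyte factor Lef1 with 88.2 against 370.9 (0.238-fold, and 0.5-fold elsewhere), beside the lower T cell markers of this library. In Free OVA 39 of the 149 barcodes summed had no Lyz2, against 0 of 100 in Citrate buffer. Those 39 held 0 UMIs of Lyz1 and 1 of Csf1r, against 34 of Csf1r in the Free OVA barcodes with Lyz2. Among barcodes with Lyz2, Lyz1 had 372.1 CPM in Free OVA and 1119 in Citrate buffer. Of barcodes with Malat1 under 0.5%, 7.21% of 569 genes were past 2-fold, 5.98% higher and 1.23% lower.

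Between LysoPS-OVA and Free OVA, LysoPS-OVA was past 2-fold higher in Cxcl9, Ifitm3 and Lgals3, and lower in Ccl5, Cxcl16 and Il4i1. Of 567 measured genes 9.17% were past 2-fold, 1.06% higher and 8.11% lower, around a median of −0.15 log2. Not past 2-fold were Lyz2 and Apoe. Lyz2 had 16767 CPM in LysoPS-OVA and 11693 CPM in Free OVA (1.43-fold, 1.33 to 1.55), and Apoe 12873 and 8926 CPM (1.44-fold, 1.32 to 1.57). Cxcl9 had 640.1 and 199.6 CPM (3.21-fold, 2.0 to 5.11), seen in 13 of 47 and 18 of 149 barcodes, where in all other barcodes it was at 0.380-fold. The antiviral membrane gene Ifitm3 had 906.8 and 403.8 CPM (2.25-fold), with 15 of its 51 UMIs in LysoPS-OVA in 1 barcode, and galectin-3 (Lgals3) had 871.3 and 389.9 CPM (2.23-fold, 1.54 to 3.22). Lyz1 was 3.41-fold higher, but 32 of its 56 UMIs in LysoPS-OVA were in 1 barcode. Timd4 did not pass the filter on low values and had 9 UMIs in LysoPS-OVA and 8 in Free OVA (4.31-fold, 1.48 to 12.8). Ccl5 had 23 UMIs in LysoPS-OVA and 237 in Free OVA, 409.0 and 1100 CPM (0.372-fold, 0.231 to 0.571), Cxcl16 had 1 and 39 (0.0982-fold) and Il4i1, an enzyme that breaks down aromatic amino acids, had 2 and 57 (0.134-fold). These 3 genes were lower elsewhere too, at 0.470-fold, 0.371-fold and 0.528-fold in all other barcodes, and Il4i1 and Fscn1, with 5 and 48 UMIs, are markers of migratory dendritic cells, whose summed level was also lower in LysoPS-OVA; the part of such cells in these values was not tested.

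Against both other libraries, LysoPS-OVA was highest in Cxcl9, Gabarap, the RNA-binding protein gene Hnrnpk, Lgals3, Cox6b1 and Ifitm3. Lgals3 was 1.91-fold (1.29 to 2.79) and Ifitm3 1.85-fold (1.27 to 2.68) as high as in Citrate buffer. It was lowest in Ndufb4, Polr2g, Utrn, Stag1, Zc3h15 and Arhgef3, each with 2 or 3 UMIs in LysoPS-OVA. Their levels were 35.6 or 53.3 CPM in LysoPS-OVA, 143.9 to 185.7 CPM in Free OVA and 198.7 to 304.7 CPM in Citrate buffer, and they were measured only through the libraries in which they are high. Among barcodes with Lyz2, LysoPS-OVA and Free OVA were compared over 427 genes, of which 8.67% were past 2-fold, 1.41% higher and 7.26% lower in LysoPS-OVA. Of barcodes with Malat1 under 0.5%, 8.97% of 446 genes were past 2-fold between them, 1.12% higher and 7.85% lower. Among barcodes with Lyz2, Cxcl9 had 772.8 CPM in LysoPS-OVA, 254.0 CPM in Free OVA and 152.3 CPM in Citrate buffer, and Lyz2 itself 20243, 14879 and 13988 CPM.

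**Figure D5:**
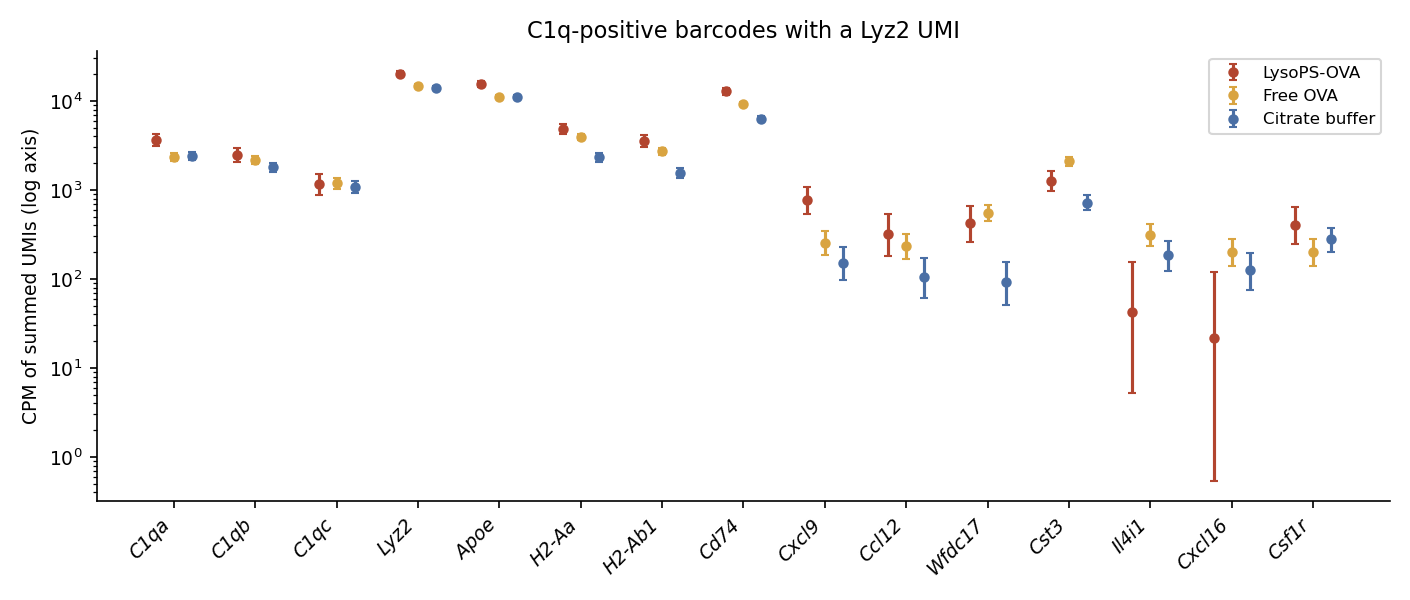
Level in CPM (y axis, log scale) of 15 genes in C1q-positive barcodes with a Lyz2 UMI, for LysoPS-OVA, Free OVA and Citrate buffer from left to right. Points are levels from summed UMIs and bars exact 95% Poisson intervals, which cover counting error only; Cxcl9 is highest in LysoPS-OVA (772.8 CPM) and Wfdc17 lowest in Citrate buffer (92.7 CPM).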

How the data were processed

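RNA was captured with 10x Chromium 3' chemistry from digested mesenteric lymph nodes, per the labels' protocols. The authors deposited unnormalized UMI counts, made with Cell Ranger 7.2.0 on mm10, per the submitters' processing notes; their annotation and use of intronic reads are not given in the sources used here. Counts were summed over the C1q-positive barcodes of a library and scaled to CPM of their total. Folds are ratios of CPM, and log2 ratios carry a pseudocount of 10 CPM. A gene was measured where its higher library reached 50 CPM and 30 UMIs, so a gene that passes had to be present in only 1 of the libraries compared. For the division by Lyz2, a gene was measured with 30 UMIs or more over both sets together, with no minimum CPM. It was counted as past 2-fold at 1 or more on the log2 scale. Intervals are exact binomial (shares), exact Poisson (levels), Katz (ratios of shares) and conditional binomial (folds). They cover counting error only, and CPM from 3' counts is not scaled by gene length. The members and the gene lists were chosen with earlier results of these data known. Named genes are the members of the lists, the 8 highest and 8 lowest genes in each comparison, and the 6 highest and 6 lowest in LysoPS-OVA against both other libraries. Genes named for the division by Lyz2, and those traced to a single barcode, were chosen after their values were seen. B cell, T cell and migratory dendritic cell barcodes were chosen by marker UMIs and keep their own depth. Doublets were called with Scrublet in Scanpy 1.11.5. Other steps used Python 3.11.15, NumPy 2.4.6, SciPy 1.17.1 and pandas 2.3.3, and were tested on simulated counts. Alternatives were the C1q threshold, depth thinning, doublets, lineage genes, the mitochondrial limit, Malat1 share, scaling, pseudocount and filter.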

Additional observations from a re-analysis of the deposited data

Results flagged for a closer look

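Barcodes with at least 2 Fcgr4 UMIs and no Lyz2 UMI were also present outside the C1q-positive rule, among barcodes used above only as the summed background of all other kept barcodes. They numbered 3 in LysoPS-OVA, 25 in Free OVA and 1 in Citrate buffer. That is 1.74 per 10000 other kept barcodes in LysoPS-OVA (0.358 to 5.07), 10.8 in Free OVA (6.98 to 15.9) and 0.381 in Citrate buffer (0.00965 to 2.12). Of the 25 in Free OVA, 16 carried UMIs of Cd3e, Ms4a1 or Xcr1 and 11 had no C1q UMI. With 1 library per group the difference was not tested.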

How the results depend on the processing

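No paired analysis was possible because each group is 1 library. Of share ratios with an interval off 1, and of single genes and list medians past 2-fold, none changed direction under the alternatives run. A change of direction was not looked for in single genes and list medians under 2-fold. Directions that were not called did: LysoPS-OVA over Citrate buffer turned from a share ratio under 1, with an interval that holds 1, to one above it, and its all-gene median turned to 0.11 log2 with more lineage genes at 0. In all, 654 of 717 values of single genes and 204 of 210 list medians stayed close to those given. The share of C1q-positive barcodes in LysoPS-OVA over Citrate buffer, 0.715 as given, was 1.20 with more lineage genes at 0, 0.477 with the C1q threshold alone and 1.02 with the denominator free of lineage genes. Free OVA over Citrate buffer, 1.68 as given, was 2.32 with barcodes thinned to 1000 UMIs, 2.82 with more lineage genes at 0, 1.15 with the threshold alone, 1.24 for barcodes with Lyz2 and 1.05 with the lineage-free denominator. LysoPS-OVA over Free OVA, 0.425 as given, was 0.274 thinned and 0.970 with the lineage-free denominator. Barcodes without Lyz2 in Citrate buffer were 4.86% after thinning to 500 UMIs, and 4 of 201 with the C1q threshold alone. Genes past 2-fold in LysoPS-OVA over Citrate buffer, 100 as given, were 20 with C1q at 6 UMIs or more, 44 without doublets, 16 with more lineage genes at 0, 42 with mitochondrial UMIs of 5% or less, 46 with Malat1 at 0.5% or more, 9 under it, 4022 with no filter and 64 without the deepest Citrate buffer barcode. In Free OVA over Citrate buffer, 126 as given, they were 30, 75, 32, 78, 32, 41 and 2333 under the first 7 of these in the same order, and 76 with a pseudocount of 50 CPM. Without the deepest barcode they were 85, within 1.5 times. In LysoPS-OVA over Free OVA, 52 as given, they were 32 with C1q at 6 UMIs or more, 19 with more lineage genes at 0, 12 with Malat1 at 0.5% or more, 33 with a pseudocount of 50 CPM and 3054 with no filter. Of the calls in Free OVA over Citrate buffer, 25.4% were higher as given (32 higher, 94 lower), 43.4% with scaling by the median of ratios, 81.2% with more lineage genes at 0 and 82.9% with Malat1 under 0.5% (34 higher, 7 lower). The cause of these moves was not tested, except that fewer barcodes leave fewer genes past the filter. The alternatives of the C1q threshold alone, the lineage-free denominator, barcodes with Lyz2, Malat1 under 0.5%, thinning to 500 UMIs and the deepest barcode were chosen after seeing the data. A depth of 56241 UMIs over 47 barcodes in LysoPS-OVA limits what can be seen of genes under 50 CPM.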
